A study of Mus musculus with 12 samples.

Results

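Treatment with vitamin D3 and interleukin 10 (IL-10) was examined here in unstimulated dendritic cells, the antigen-presenting cells that instruct T cells. The comparison held 6 of the 12 samples of the series: 3 of tolerogenic dendritic cells (TolDC), which had received vitamin D3 and IL-10, and 3 of untreated dendritic cells (BMDC). No group of the series received either agent alone, so the effects of vitamin D3 and of IL-10 cannot be told apart. They were chosen by their titles, which name the cell and day 7 and no lipopolysaccharide (LPS, a bacterial cell wall component). All 6 were wild-type C57BL6 cells from bone marrow, enriched for live cells carrying the integrin CD11c, and no other allele or agent is named. The doses and times of treatment, the growth factors of the culture, and the age and sex of the mice were not stated in the sources used. The other 6 samples, 3 of each cell with LPS, entered the model that estimates the spread and 1 test described at the end. Whether the replicates were separate mice or cultures is not stated in the labels, so p-values measure the spread among these libraries alone, and that spread may be technical.

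Active vitamin D binds the vitamin D receptor (VDR), a nuclear receptor that pairs with a retinoid X receptor on DNA and switches on, among others, the enzyme CYP24A1, which breaks the hormone down. IL-10 signals through a receptor of IL10RA and IL10RB chains to the transcription factor STAT3 and is known for holding back cytokines and co-stimulatory molecules in myeloid cells. Dendritic cells exposed to either agent are used as models of tolerance, in which antigen is presented with weak co-stimulation.

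The 6 libraries held 22605855 to 30007479 reads assigned to genes, and at this depth 3 counts over a group correspond to 0.0364 CPM (read counts brought to a common library size) in BMDC and 0.0384 CPM in TolDC. Log2 CPM values correlated at 0.9927 to 0.9958 within groups and at 0.9463 to 0.9532 between them, and the first principal component, 85.1% of the variance, parted the groups. The second, 6.98%, parted the libraries numbered 1 from the others. The cell label was set beside markers. Since the cells were enriched by CD11c, the level of its gene follows from that choice and cannot check the label. Itgax, which encodes CD11c, was at 2253, 1981 and 1997 CPM in BMDC and at 2235, 2024 and 2013 CPM in TolDC, and the groups overlapped. Flt3, a receptor of conventional dendritic cells, was under 1 CPM in all 6 libraries, and Zbtb46, a transcription factor of that lineage, was at 31.9 CPM in BMDC and 16.8 in TolDC. Of the 9 dendritic cell markers tested, these included, 4 were lower in TolDC, 3 higher and 2 not called at the threshold given below. The 3 higher were H2-Ab1, Ciita and Btla, described below. The list summed to 6579 to 6921 CPM in BMDC and 7113 to 7493 CPM in TolDC. Most of this sum was Cd74 (4240 and 4215 CPM) and Itgax, neither of them called. Most of its rise was H2-Ab1 (331 to 814 CPM), so the sum does not speak for the other members.

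The treated cells differed from untreated cells in most of the genes tested. Of 13141 genes, 4203 were higher in TolDC (32.0%) and 3998 lower (30.4%) at an adjusted p below 0.05 in edgeR's quasi-likelihood test with Benjamini-Hochberg adjustment, so that 62.4% were called in either direction. With a change of at least 2-fold, 853 were higher (6.49%) and 1055 lower (8.03%). For 8793 genes (66.9%) the 3 TolDC values did not overlap the 3 BMDC values, and the median log2 change over all genes tested was 0.0091. The measurements are from bulk samples, in which fewer cells of a type and less RNA per cell cannot be told apart. Counts of list members below are to be read against these shares. Several lists lay near the 62.4%, such as MHC class I (65.0% called), pattern receptors (64.5%), eicosanoid genes (66.7%) and interferon-stimulated genes (68.3%). Complement (47.4%) and the respiratory chain (52.5%) lay below it. Being called at such a rate does not set a list apart from all genes.

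**Figure D1:**
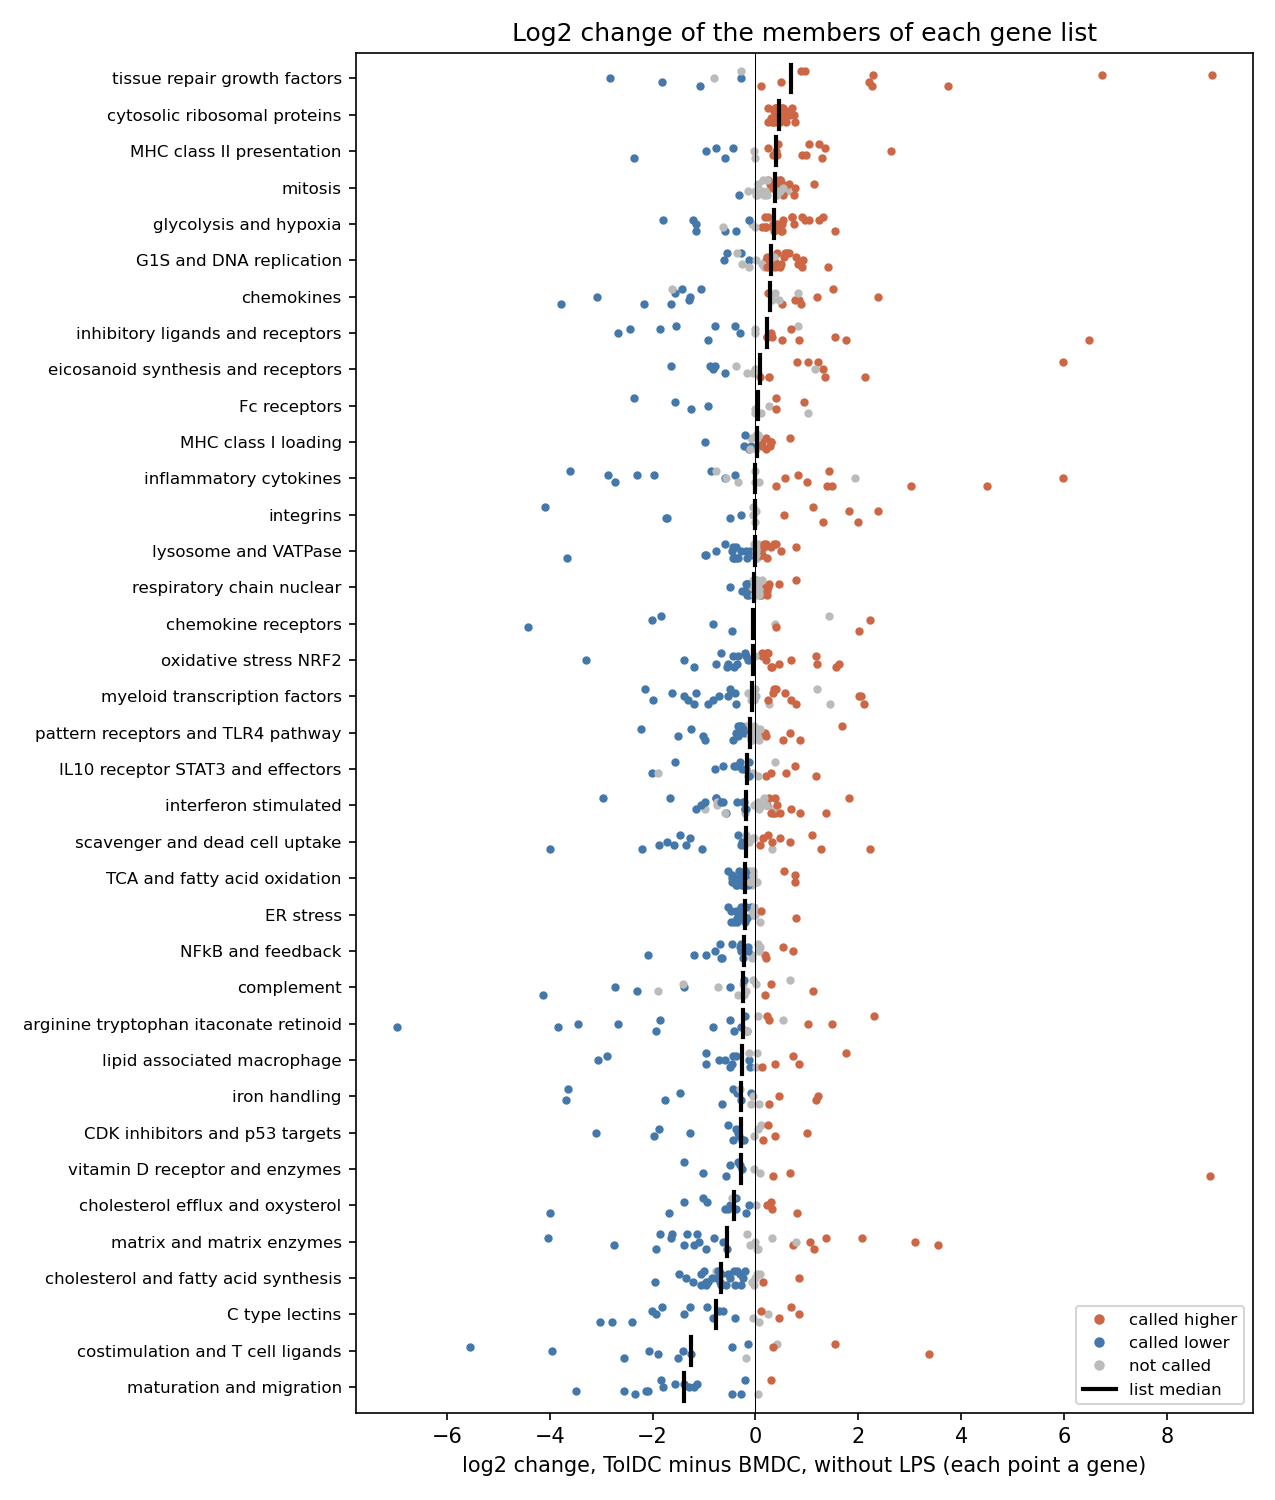
Log2 change (TolDC minus BMDC, without LPS) of each tested member of the 37 function lists, 1 point a gene, coloured by call, with the list median as a black bar and lists ordered by median. The medians run from −1.38 for maturation and migration to 0.70 for tissue repair growth factors, and all 40 ribosomal protein genes lie to the right of 0.

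The vitamin D pathway was led by its degrading enzyme. Cyp24a1 (chromosome 2, 170482708 to 170497145, minus strand, GRCm38) was at 1820, 1708 and 1743 CPM in TolDC and at 0, 0.0324 and 13.1 CPM in BMDC replicates 1, 2 and 3. Every TolDC library was far above every BMDC library, and BMDC replicate 3 stood apart from its group with 304 counts where the others had 0 and 1. The log2 change was 8.83 ± 1.01 (SE, edgeR adjusted p = 2.99e-04), and 16.3 without BMDC replicate 3. In that library the gene was at 0.745% of the TolDC mean, and 10 of the 12 genes with the largest rises had their highest BMDC level there, at up to 1.60% of the TolDC mean. Scara5 had no counts there and Klk13 had none. Whether these counts came from the cells of this library cannot be told from the files, and their part in the fitted changes was not tested beyond leaving it out.

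The receptor rose and its partner fell. Vdr was at 346, 311 and 315 CPM in BMDC and at 546, 502 and 501 CPM in TolDC, without overlap (log2 change 0.67 ± 0.07, edgeR adjusted p = 9.63e-07). Rxra, the retinoid X receptor alpha, was at 56.5, 54.0 and 55.0 CPM in BMDC and at 19.3, 20.4 and 23.3 CPM in TolDC (log2 change −1.39 ± 0.065, edgeR adjusted p = 1.18e-12). Rxrb, its relative, rose by 0.34 and the coactivator Ncoa3 fell by 0.58 on the log2 scale. Of 12 tested genes of the receptor, its cofactors and the vitamin D enzymes, 3 rose, 7 fell and 2 were not called, with a median log2 change of −0.28. Cyp27b1, which makes the active hormone, had 7 counts over the BMDC libraries and 12 over the TolDC libraries and was not tested. The vitamin D response element, searched by name as a direct repeat on both strands from 250 bases before to 50 bases after RefSeq gene starts, was in 1 of 623 windows of genes at least 2-fold higher (0.161%), in 3 of 755 of those at least 2-fold lower (0.397%) and in 25 of 10205 of those of all genes tested (0.245%). The promoter of Cyp24a1 was not analysed here.

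The other large rises, Pdgfa apart, were in genes under 1 CPM in each untreated library. Scara5, a ferritin-binding scavenger receptor, had no counts in BMDC and was at 11.8, 12.4 and 11.7 CPM in TolDC, at least 328-fold higher against 3 counts over the BMDC group. Tgfb3, a transforming growth factor (chromosome 12, 86056745 to 86079041, minus strand), was at 0.0353, 0.0972 and 0.129 CPM in BMDC and at 43.3, 41.7 and 40.2 CPM in TolDC. Pdgfa, a platelet-derived growth factor, was at 3.42, 3.50 and 7.10 CPM in BMDC and 496, 464 and 482 CPM in TolDC. In none of the 12 genes did a TolDC library come near a BMDC library. The edgeR log2 changes were 8.87 ± 0.14 for Tgfb3 (adjusted p = 6.06e-19) and 6.73 ± 0.21 for Pdgfa (adjusted p = 4.68e-09).

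Several of these genes are better known from nerve and endocrine cells. Chga, chromogranin A of secretory granules, went from 0.464 to 129 CPM, and its log2 change of 8.23 ± 0.19 was 9.26 without BMDC replicate 3. Nppc, the C-type natriuretic peptide, went from 0.151 to 27.9 CPM, and Msi1, an RNA-binding protein of neural progenitors, from 0.142 to 26.0 CPM. Iqsec3, an exchange factor for ARF proteins, had 2 counts in BMDC and 868 in TolDC, a ratio of 458 (95% counting interval 126 to 3789). Lhx6, a homeobox factor of interneurons, had 2 and 426 counts, a ratio of 225 (95% counting interval 61.9 to 1863). Klk13, a kallikrein protease, had 1 and 1062 counts, a ratio of 1121 (95% counting interval 201 to 44318). The remaining 2, Mdfi, an inhibitor of MyoD family factors, and Atp8b1, a phospholipid flippase, reached 11.2 and 8.06 CPM in TolDC from 0.0882 and 0.0646 CPM. Intervals and floors cover counting error only. Without BMDC replicate 3 the log2 change was 8.17 for Msi1 (7.56 with it), 11.3 for Iqsec3 (8.59) and 7.70 for Atp8b1 (6.95). Without BMDC replicate 1 it was 11.6 for Klk13 (9.68). In these fits Iqsec3 and Klk13 had no counts left in BMDC. Their values of 11.3 and 11.6 therefore depend on the small count that the fit adds (the prior count) and are no bounds.

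**Figure D2:**
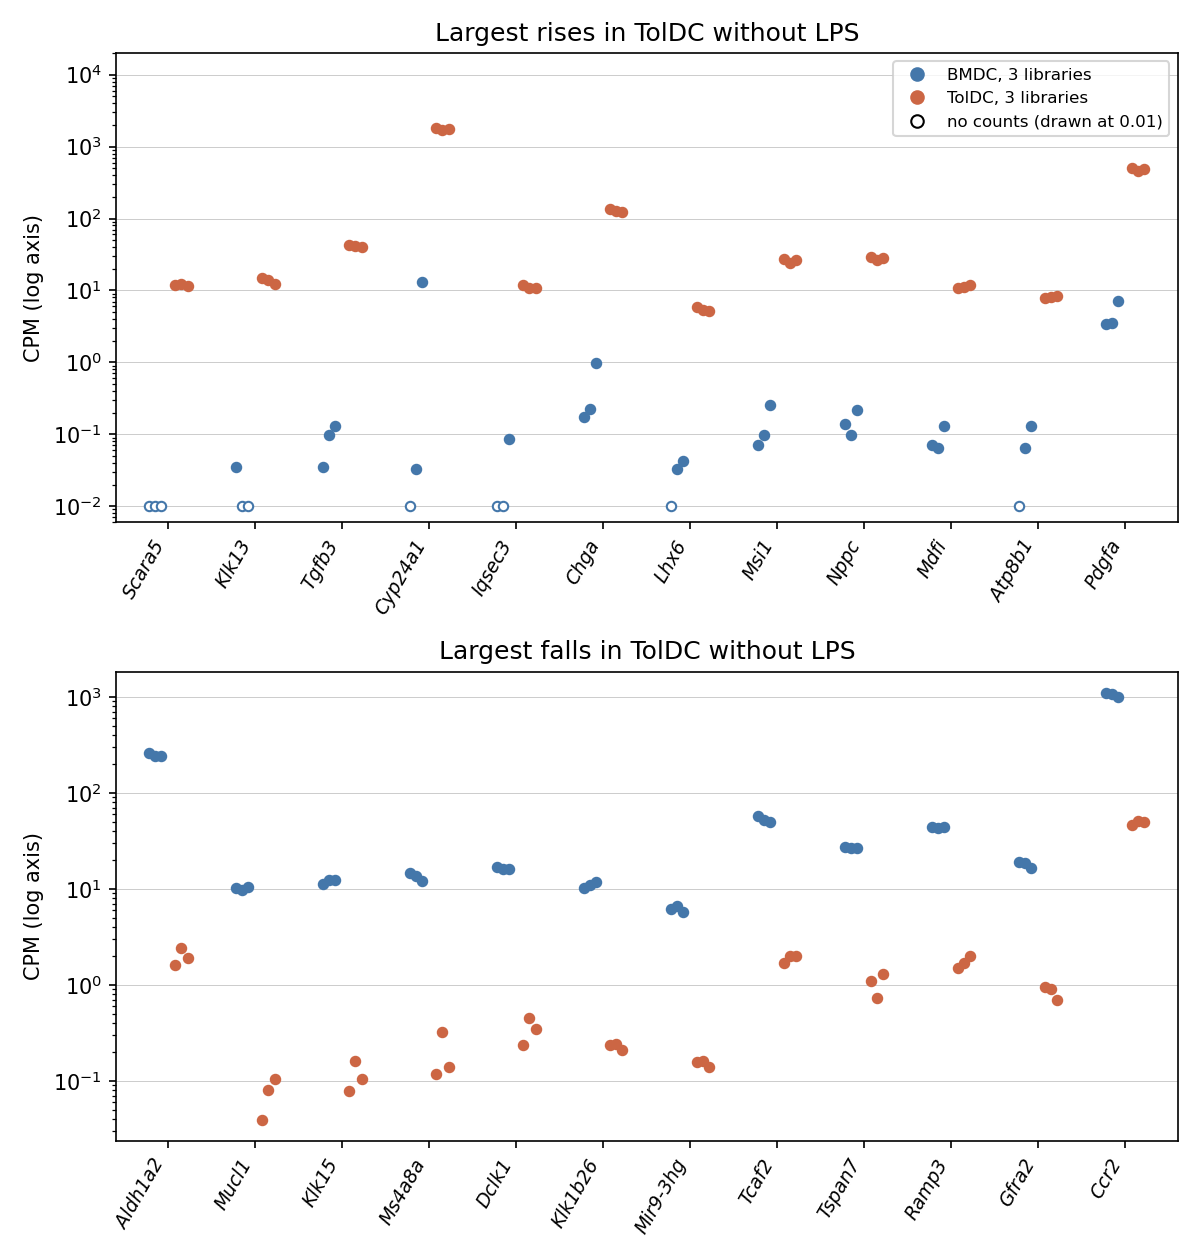
CPM on a log axis of the 12 genes with the largest rises (upper panel) and the 12 with the largest falls (lower panel), 1 point a library, BMDC in blue and TolDC in orange, with open points at 0.01 for libraries without counts. The groups are apart for all 24 genes, and the BMDC library with 13.1 CPM of Cyp24a1 is replicate 3.

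The largest fall was in the enzyme that makes retinoic acid. Aldh1a2 (chromosome 9, 71215789 to 71296243, plus strand) was at 257, 243 and 243 CPM in BMDC and at 1.63, 2.41 and 1.90 CPM in TolDC. All 3 treated libraries were far below all untreated ones, with a log2 change of −6.97 ± 0.074 (edgeR adjusted p = 1.24e-21). Ccr2, the receptor that brings monocytes to tissue, was at 1092, 1058 and 1000 CPM in BMDC and at 46.2, 51.4 and 49.2 CPM in TolDC (log2 change −4.42 ± 0.076, edgeR adjusted p = 4.39e-16). Other losses were of signalling proteins: Ramp3, a partner of peptide hormone receptors (43.8 to 1.74 CPM), Gfra2, a neurotrophic factor receptor (18.1 to 0.852 CPM), Dclk1, a kinase that binds microtubules (16.4 to 0.346 CPM), Tspan7, a tetraspanin (26.7 to 1.05 CPM), and Tcaf2, a channel-associated factor (53.0 to 1.90 CPM). Mucl1, a mucin-like protein, went from 10.1 to 0.0757 CPM, and Mir9-3hg, a host transcript of a microRNA, from 6.19 to 0.154 CPM. Ms4a8a and the kallikreins Klk15 and Klk1b26 belong to families of like sequence, and since reads matching several places were left out their levels are uncertain. They were at 13.4, 12.1 and 11 CPM in BMDC and at 0.195, 0.116 and 0.231 CPM in TolDC. For Klk15 the log2 change of −6.66 was −5.58 in counts taken without regard to strand.

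Of the IL-10 list, the receptor chains and Socs3 fell while the transcription factor STAT3 rose as a transcript. Il10ra went from 92.7 to 77.5 CPM (log2 change −0.26 ± 0.04, edgeR adjusted p = 1.58e-05) and Il10rb from 52.4 to 39.4 CPM (−0.41 ± 0.038, edgeR adjusted p = 2.09e-08). Stat3 was at 103, 106 and 108 CPM in BMDC and at 183, 175 and 178 CPM in TolDC. Socs3, a suppressor of cytokine signalling, was at 71.7, 61.8 and 66.4 CPM and at 36.4, 37.8 and 41.3 CPM. The groups overlapped for neither gene, with log2 changes of 0.76 ± 0.038 and −0.79 ± 0.056 (edgeR adjusted p = 3.27e-12 and 5.18e-10). Il10 itself had 1 count in the 6 libraries. Of the 22 genes of this list, 5 rose, 12 fell and 5 were not called, with a median of −0.16. Hmox1, haem oxygenase, rose from 327 to 737 CPM, and Fcgr1, a high-affinity antibody receptor, fell by 1.56 on the log2 scale. Il1rn, the IL-1 receptor antagonist, was at 183 CPM in BMDC and 166 in TolDC and not called (edgeR adjusted p = 0.252), but the call was made with the replicate number as a block (log2 change −0.13, edgeR adjusted p = 0.00343), taking the numbers as a pairing, and without BMDC replicate 1 (−0.25, edgeR adjusted p = 0.00462).

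STAT sites, written TTCNNNGAA and the same on both strands, were in the promoter windows of 6 of the 17 members with a RefSeq entry (35.3%), against 8.48% of the windows of all genes tested. The 2 called members with the largest change and such a site before the RefSeq start are shown, with the site in capitals and 20 bases on each side, 5′ to 3′ along the gene (RefSeq, GRCm38.p6). Fcgr1 lies at chr3:96294050-96294098 and Socs3 at chr11:117969492-117969540, both on the minus strand. The GENCODE gene of Socs3 begins upstream, so that its site lies within those bounds. Both genes were lower in TolDC.
Fcgr1: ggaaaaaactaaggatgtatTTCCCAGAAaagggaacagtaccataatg
Socs3: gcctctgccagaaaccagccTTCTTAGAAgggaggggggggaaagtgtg
A match describes these letters only and shows no binding.

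Most genes of antigen presentation on MHC class II were higher in treated cells. H2-Ab1, the beta chain of I-A (chromosome 17, 34257689 to 34269419, plus strand), was at 327, 328 and 339 CPM in BMDC and at 857, 790 and 794 CPM in TolDC (log2 change 1.30 ± 0.053, edgeR adjusted p = 2.26e-13). Its alpha chain H2-Aa was at 466, 449 and 471 CPM and at 1130, 1052 and 1060 CPM. Neither chain overlapped between the groups. Ciita, the master activator of class II genes, rose from 26.5 to 49.9 CPM, and the peptide exchange genes H2-DMb2 and H2-Ob, the latter an inhibitor of exchange, rose from 32.3 to 82.9 and from 3.97 to 24.7 CPM. Of 19 tested genes, 12 rose, 5 fell and 2 were not called, with a median of 0.40. Cd74, the invariant chain, stayed within the spread between libraries (4240 and 4215 CPM, edgeR adjusted p = 0.916), and among the 5 that fell were the proteases that process it, Ctss (3147 to 1852 CPM) and Ctsl (631 to 325 CPM). Genes of class I presentation were mixed, with 8 of 20 higher, 5 lower, 7 not called and a median of 0.036. The shares over all genes were 32.0% higher and 30.4% lower. The count of 5 was 3 without TolDC replicate 2 or 3. H2-Q7 and H2-Q4 of class I rose by 0.67 and 0.29, although their shared sequence makes both levels uncertain, while Cd1d1, which presents lipids, fell by 0.99 on the log2 scale.

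Most co-stimulation genes moved the other way. Cd86, a ligand of CD28, was at 34.5, 37.6 and 35.8 CPM in BMDC and at 15.3, 14.6 and 15.1 CPM in TolDC (log2 change −1.26 ± 0.049, edgeR adjusted p = 7.05e-14). Cd83, which stabilises class II and CD86 at the surface, was at 151, 152 and 152 CPM and at 25.8, 26.2 and 25.4 CPM (−2.56 ± 0.048, edgeR adjusted p = 4.14e-18). Cd40, the receptor of CD40 ligand, was at 9.28, 8.30 and 8.44 CPM and at 1.94, 2.65 and 2.43 CPM. The groups did not overlap for these 3 genes. Cd80, the other CD28 ligand, was at 94.8 and 86.3 CPM (−0.14 ± 0.045, edgeR adjusted p = 0.0142), a call lost without TolDC replicate 2 (adjusted p = 0.0515) or 3 (0.0682). Of 15 tested genes of co-stimulation, 10 fell, 3 rose and 2 were not called, with a median of −1.26. The 3 that rose were the TNF family ligands Tnfsf14 (2.17 to 22.6 CPM), Tnfsf9 (1.70 to 5.0 CPM) and Tnfsf4 (12.1 to 15.5 CPM).

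Genes that mark mature, migrating dendritic cells were lower in 15 of 17 cases, with 1 higher, 1 not called and a median of −1.38. Ccr7, the receptor for migration to lymph nodes, was at 164, 186 and 189 CPM in BMDC and at 43.3, 53.8 and 52.9 CPM in TolDC (log2 change −1.84 ± 0.076, edgeR adjusted p = 4.80e-11). Nudt17, Marcksl1, an actin regulator, and Cacnb3, a calcium channel subunit, fell by 3.48, 2.35 and 2.13 on the log2 scale.

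Inhibitory molecules were split. Btla, a receptor that dampens lymphocytes through the TNF receptor family member HVEM (chromosome 16, 45224315 to 45257670, plus strand), was at 0.353, 0.583 and 1.51 CPM in BMDC and at 71.6, 68.2 and 68.2 CPM in TolDC. Its log2 change was 6.49 ± 0.21 (edgeR adjusted p = 6.74e-10), and 7.16 without BMDC replicate 3, its highest untreated library. Tnfrsf14, which encodes HVEM, rose from 19.2 to 30.9 CPM, Havcr2, the receptor TIM-3, from 43.1 to 126 CPM, and Gpnmb, a glycoprotein that restrains T cells, from 697 to 2343 CPM. Cd274, the PD-1 ligand, rose from 266 to 326 CPM (log2 change 0.29 ± 0.035), while its relative Pdcd1lg2 fell from 186 to 108 CPM. Lgals1, a galectin, and Nectin2, a ligand of TIGIT, fell by 1.55 and 2.43 on the log2 scale. In all, 10 of 21 tested members rose, 8 fell and 3 were not called, with a median of 0.22.

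**Figure D3:**
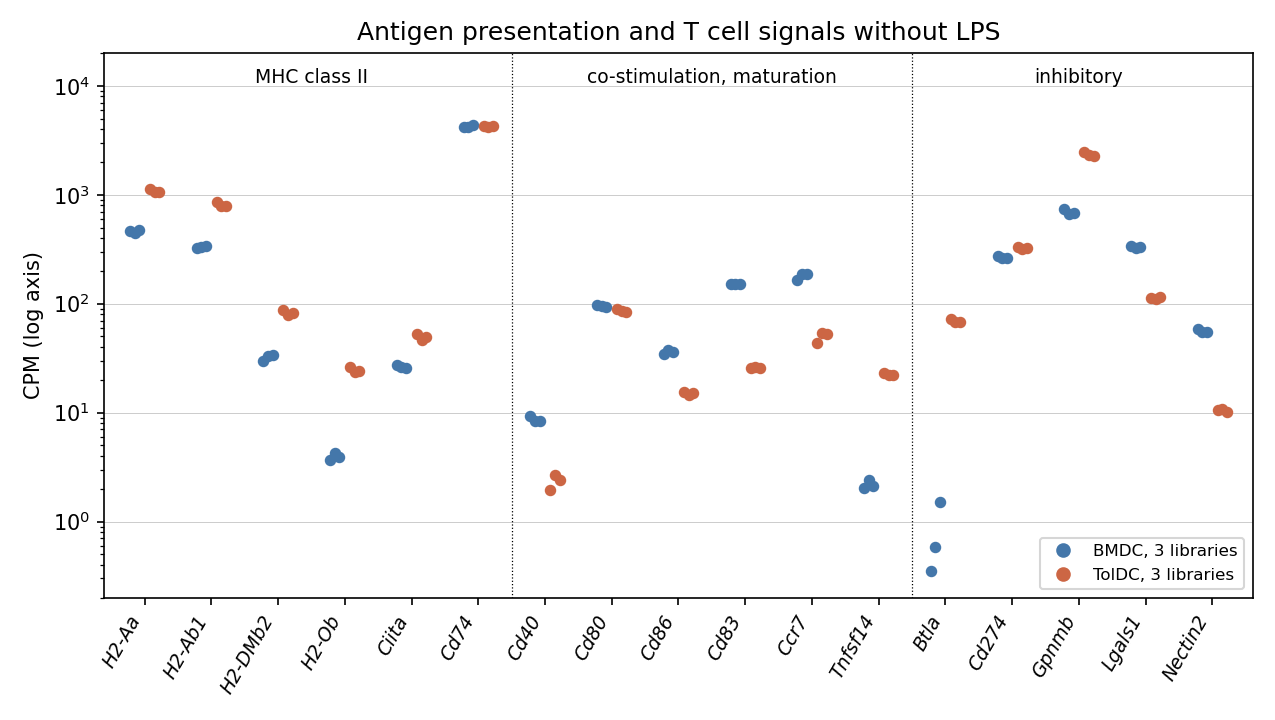
CPM on a log axis of genes of MHC class II presentation, co-stimulation and maturation, and inhibition, 1 point a library, BMDC in blue and TolDC in orange. H2-Aa and H2-Ab1 are higher and Cd86, Cd83 and Ccr7 lower in all 3 TolDC libraries, Cd74 overlaps, and Btla rises from 0.814 to 69.3 CPM.

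Inflammatory mediators were not uniformly low in treated cells. Ptgs2, cyclooxygenase 2, was at 0.529, 0.551 and 0.818 CPM in BMDC and at 42, 37.5 and 38.6 CPM in TolDC, without overlap (log2 change 5.98 ± 0.15, edgeR adjusted p = 1.10e-12). Il33, an alarmin of the IL-1 family, went from 0.785 to 17.8 CPM (4.51 ± 0.15, edgeR adjusted p = 2.94e-14). Il1a, Il1b, Tnf and Nos2, the inducible nitric oxide synthase, rose by 1.43, 1.39, 0.83 and 1.48 on the log2 scale. Il12b, the shared chain of IL-12 and IL-23, and Il23a fell from 0.870 to 0.129 and from 1.59 to 0.218 CPM, both at low levels. Of 25 tested, 10 rose, 8 fell and 7 were not called, with a median of 0, where 32.0% of all genes rose and 30.4% fell. Among the 7 not called, 2 had no counts in any of the 6 libraries. The median of 0 therefore does not show a balance of detected members. Il6 was among those not called, at 4.90 and 3.85 CPM (edgeR adjusted p = 0.215).

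Chemokines changed in both directions. Among those that rose were attractants of monocytes. Ccl2 was at 37.5, 41.8 and 44.6 CPM in BMDC and at 218, 210 and 220 CPM in TolDC (log2 change 2.39 ± 0.059, edgeR adjusted p = 5.14e-16), and Ccl7 went from 14.2 to 40.3 CPM. Among those that fell were attractants of T cells. Ccl22, a ligand of CCR4, was at 2284, 2316 and 2385 CPM and at 792, 762 and 795 CPM (−1.57 ± 0.052, edgeR adjusted p = 9.49e-15), Ccl17, the other CCR4 ligand, went from 1835 to 744 CPM, and Ccl5 from 72.9 to 8.55 CPM. Ccl24, an eosinophil attractant, went from 1267 to 472 CPM. Of 22 tested, 8 rose, 9 fell and 5 were not called, with a median of 0.28, and all 9 that fell did so by at least 2-fold. Of 10 chemokine receptors tested, 3 rose and 5 fell (median −0.046), among them Cxcr4, from 61.6 to 34.6 CPM (log2 change −0.83 ± 0.20, edgeR adjusted p = 0.00677).

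Transcription factors of myeloid cells changed in both directions. Ahr, the aryl hydrocarbon receptor, was at 22.6, 20.7 and 22.1 CPM in BMDC and at 98.1, 87.8 and 94.6 CPM in TolDC (log2 change 2.10 ± 0.074, edgeR adjusted p = 6.51e-13). Egr1, an immediate early gene, rose from 37.2 to 155 CPM and Runx3, which limits dendritic cell maturation, from 18.4 to 74.5 CPM. The dendritic cell factors Irf8 and Irf4 rose by 0.79 and 0.41, and Klf4 and Bhlhe41 fell by 2.00 and 2.15 on the log2 scale. Of 32 tested, 10 rose, 14 fell and 8 were not called, with a median of −0.066, where 32.0% of all genes rose and 30.4% fell.

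Receptors for microbes and genes of the NF-kB pathway were more often lower than higher. Tlr4, the receptor of LPS, was at 131, 126 and 121 CPM in BMDC and at 98.1, 94.6 and 97.3 CPM in TolDC (log2 change −0.39 ± 0.048, edgeR adjusted p = 1.29e-06). Its co-receptor Cd14 was not called (33.6 and 35.0 CPM, edgeR adjusted p = 0.311). Tlr11, a receptor of profilin, and Tlr9, of DNA, fell by 2.23 and 1.5, Nlrp3, an inflammasome sensor, by 1.03, and Trem1 rose by 1.69 on the log2 scale. Of 31 pattern receptor genes, 14 fell, 6 rose and 11 were not called, with a median of −0.10. Of 24 NF-kB genes, 15 fell, 4 rose and 5 were not called, with a median of −0.23, including Relb (39.5 to 17.3 CPM), Nfkb2 (130 to 75.3 CPM) and the signalling adaptor Traf1 (43.7 to 10.3 CPM). Of 20 C-type lectins 13 fell and 4 rose, with a median of −0.77. Clec10a, a galactose-binding lectin, went from 43.8 to 6.34 CPM, and the clustered genes Clec4a1, Clec4a3 and Clec4b2, which are alike and uncertain, fell by 3.02, 1.94 and 2.40.

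Interferon-stimulated genes were divided, with 12 of 41 higher, 16 lower, 13 not called and a median of −0.17. The shares over all genes were 32.0% higher and 30.4% lower. Slfn5 was at 16.8, 18.8 and 18.1 CPM in BMDC and at 66.4, 61.5 and 61.8 CPM in TolDC (log2 change 1.82 ± 0.054, edgeR adjusted p = 1.87e-15), and Irf7, a factor of interferon production, went from 8.95 to 23.1 CPM. Among members with antiviral roles, Oasl1 (9.59 to 3.02 CPM), Cmpk2 (14.5 to 6.55 CPM) and Rsad2 (12.2 to 5.85 CPM) fell. Isg15, Isg20, Ifit1, Ifit2, Oas1a, Oas3, Bst2 and Eif2ak2 fell too (log2 changes −0.175 to −0.982). Mx1 and Zbp1 rose (log2 changes 0.31 and 0.48), and Ifit3, Oas2, Oasl2, Ifi44 and Xaf1 were not called. Gbp2, Gbp3, Gbp5, Gbp7 and Irgm1 also rose (log2 changes 0.230 to 0.700). The interferon response element, GAAANNGAAA on either strand, was in 19 of the 31 promoter windows of this list (61.3%) against 4.08% of those of all genes tested. It was in 6 of 9 windows of members that rose, 8 of 13 of those that fell and 5 of 9 of those not called. The member with the largest rise and the 2 with the largest falls that hold it before the RefSeq start are shown (element in capitals, GRCm38.p6). Slfn5 lies at chr11:82951927-82951976 on the plus strand, and Ifi205, of a family of like genes and therefore uncertain (4.21 to 0.552 CPM), at chr1:174031860-174031909 and Rsad2 at chr12:26456543-26456592 on the minus strand. In Rsad2 the element reads on the opposite strand, and in Slfn5 it lies within the GENCODE gene, which begins upstream.
Slfn5: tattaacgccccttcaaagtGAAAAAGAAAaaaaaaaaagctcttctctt
Ifi205: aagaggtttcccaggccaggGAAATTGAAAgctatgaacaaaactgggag
Rsad2: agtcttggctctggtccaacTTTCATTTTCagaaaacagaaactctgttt

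Growth factors of tissue repair had the highest median of the 37 function lists, 0.70, with 10 of 16 tested higher, 4 lower and 2 not called. Beside Tgfb3 and Pdgfa, Hbegf, a ligand of the EGF receptor, rose from 63.3 to 307 CPM, Gdf15, a stress-induced factor, from 49.4 to 228 CPM, and Vegfa, which drives vessel growth, from 63.1 to 124 CPM. Fgf2 went from 0.578 to 7.76 CPM, and its log2 change of 3.75 was 2.56 in counts taken without regard to strand. Tgfb1 rose by 0.50, while Nrg1, a neuregulin, and Inhba, a chain of activin, fell by 2.82 and 1.81 on the log2 scale.

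Among 29 matrix genes 15 fell and 7 rose, with a median of −0.55. Tgm2, tissue transglutaminase, which cross-links proteins, was at 1457, 1305 and 1348 CPM in BMDC and at 6058, 5589 and 5570 CPM in TolDC, with every TolDC value far above every BMDC value (log2 change 2.07 ± 0.053, edgeR adjusted p = 4.29e-16). Mmp8, a collagenase, rose from 53.3 to 460 CPM, while Vcan, the proteoglycan versican, fell from 30.4 to 1.86 CPM. Among 15 integrins, 6 rose and 5 fell (median −0.0040). Itgb7 went from 22.9 to 119 CPM and Itga1, a collagen receptor chain, from 30.3 to 121 CPM, while Itga4 went from 44.2 to 13.4 CPM. Of 21 eicosanoid genes 9 rose and 5 fell (median 0.091), with Pla2g7, which degrades platelet-activating factor, going from 262 to 1143 CPM and the prostaglandin receptor Ptger4 from 13.4 to 4.26 CPM.

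Amino acid and retinoid enzymes diverged. Arg1, arginase, was at 3544, 3314 and 3313 CPM in BMDC and at 7178, 6757 and 6816 CPM in TolDC (log2 change 1.03 ± 0.052, edgeR adjusted p = 5.81e-12). Kynu, kynureninase of tryptophan breakdown, was at 227, 213 and 211 CPM and at 15.8, 15.2 and 14.8 CPM (−3.83 ± 0.06, edgeR adjusted p = 5.27e-19), and Kmo, which acts before it, went from 59.7 to 15.7 CPM. Rbp4, the retinol carrier, fell by 3.46 on the log2 scale along with Aldh1a2. Of 20 members, 12 fell, 5 rose and 3 were not called, with a median of −0.24.

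Transcripts of lipid synthesis were mostly lower. Of 35 genes of cholesterol and fatty acid synthesis, 27 fell, 2 rose and 6 were not called, with a median of −0.66, and the count of 2 was 1 without any library but TolDC replicate 1. Srebf2, the transcription factor of the pathway, went from 157 to 92.9 CPM, Hmgcs1, an early enzyme of the mevalonate pathway, from 47.2 to 28.6 CPM, and Sc5d, a late one, from 46.0 to 19.7 CPM. Scd1, which desaturates fatty acids, was at 93.5, 83.9 and 83.8 CPM in BMDC and at 32.4, 29.9 and 30.9 CPM in TolDC, without overlap (log2 change −1.49 ± 0.067, edgeR adjusted p = 2.61e-12). Of 18 genes of cholesterol efflux 12 fell and 4 rose, with a median of −0.42. Abca1, the efflux pump, was at 14.3, 11.1 and 10.8 CPM and at 0.873, 0.694 and 0.705 CPM (−4.0 ± 0.16, edgeR adjusted p = 3.10e-13), and its regulator Nr1h3, the liver X receptor alpha, went from 6.08 to 2.32 CPM.

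Uptake, complement and storage genes were mixed. Of 27 scavenger genes 13 fell and 9 rose (median −0.18). Mertk, a receptor for dying cells, and its ligand Pros1 fell by 1.35 and 1.58, and Stab1, a scavenger receptor, rose by 2.23 on the log2 scale. C3, the central complement protein, went from 854 to 1861 CPM, while C1qb and C1qc went from 14.4 to 2.91 and from 8.64 to 1.27 CPM. Complement had 3 higher and 6 lower of 19 (median −0.23). Fc receptors had 3 higher (5 with a replicate block in the 6 libraries alone) and 4 lower of 12 (median 0.051), among them Fcrls, which went from 107 to 20.8 CPM. Of 20 genes known from lipid-associated macrophages 12 fell and 5 rose (median −0.25), and the lipid carriers Fabp5 and Fabp4 went from 247 to 33.6 and from 12.5 to 1.46 CPM. Lysosomal genes included 17 lower and 13 higher of 38 (median −0.012), with Ctsk, the osteoclast protease, at 108, 99.9 and 101 CPM in BMDC and 7.65, 8.12 and 8.63 CPM in TolDC. The count of 13 was 8 without BMDC replicate 3 or TolDC replicate 1. Of 17 iron genes 9 fell and 4 rose (median −0.28), with Hamp, the hormone hepcidin, and Cp, caeruloplasmin, at 6.74 and 7.47 CPM in BMDC and 0.532 and 0.574 CPM in TolDC.

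Transcripts of glycolysis were more often higher and those of mitochondrial oxidation more often lower, by modest amounts. Of 34 genes of glycolysis and hypoxia 24 rose, 7 fell and 3 were not called, with a median of 0.35. Bnip3, a mitophagy receptor, went from 21.1 to 52.7 CPM and Ankrd37, a hypoxia target, from 4.86 to 11.4 CPM, whereas Pfkfb4 and Ndrg1 fell by 1.16 and 1.21. Of 35 genes of the citric acid cycle and of fatty acid oxidation 23 fell, 3 rose and 9 were not called, with a median of −0.20; Ogdh, an enzyme of the citric acid cycle, went from 388 to 283 CPM. Respiratory chain genes had 9 higher and 12 lower of 40, with a median of −0.026. Of 25 endoplasmic reticulum stress genes 17 fell and 2 rose (1 without replicate 1 or 3 of either group, median −0.21), and Hspa5, the chaperone BiP, was at 1339, 1336 and 1294 CPM in BMDC and 961, 982 and 920 CPM in TolDC. Oxidative stress genes were even, with 14 higher and 15 lower of 30 (median −0.056), from Gss, glutathione synthetase (30.1 to 89.4 CPM), to Gpx3 (8.66 to 0.876 CPM).

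Genes of DNA replication and of mitosis were more often higher than lower in treated cells. Of 37 genes of the G1 to S transition and DNA replication 25 rose, 4 fell and 8 were not called, with a median of 0.31. Ccnd1, cyclin D1, was at 25.9, 26.8 and 27.0 CPM in BMDC and at 72.7, 70.9 and 68.5 CPM in TolDC (log2 change 1.41 ± 0.079, edgeR adjusted p = 1.01e-10). Cdkn2a and Cdkn2b, inhibitors of the kinases that cyclin D activates, fell from 12.1 to 1.38 and from 9.95 to 2.73 CPM, and of 18 such inhibitors and p53 targets 11 fell and 4 rose (median −0.28). Of 36 mitosis genes 18 rose, 1 fell and 17 were not called, with a median of 0.39; 2 fell with a replicate block in the 6 libraries alone or without the libraries numbered 1. Cenpa, the centromere histone, went from 62.9 to 138 CPM. Mki67, the Ki-67 antigen, was at 68.3 and 80.5 CPM (log2 change 0.24 ± 0.091, edgeR adjusted p = 0.0410), a call lost when any library but TolDC replicate 3 was left out (adjusted p = 0.0507 to 0.164). All 40 cytosolic ribosomal protein genes tested rose, with a median of 0.45. Rpl32 was at 454, 506 and 498 CPM and at 754, 823 and 805 CPM.

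The cell cycle homology region, TTTGAA on either strand, through which cell cycle genes are held off in resting cells, was in 22 of 30 promoter windows of the mitosis list (73.3%), against 15% of the windows of all genes tested and 16.2% of those at least 2-fold higher. The 3 called members with the largest rise that hold it before the RefSeq start are shown (element in capitals, 5′ to 3′ along the gene, GRCm38.p6, minus strand). Kif2c, a microtubule depolymerase, lies at chr4:117178850-117178895, Ccnb2, cyclin B2, at chr9:70421696-70421741, and Cdk1, the mitotic kinase, at chr10:69352913-69352947, where the element begins 15 bases before the start. The GENCODE gene of Kif2c begins upstream, so that its element lies within those bounds.
Kif2c: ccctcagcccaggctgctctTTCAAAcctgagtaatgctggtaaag
Ccnb2: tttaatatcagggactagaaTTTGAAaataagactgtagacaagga
Cdk1: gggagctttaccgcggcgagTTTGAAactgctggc
Kif2c went from 5.31 to 8.98 CPM, Ccnb2 from 11.5 to 18 CPM and Cdk1 from 25.1 to 36.3 CPM, each a rise past the test. In all 3 genes BMDC replicate 1 was the lowest of the 6 libraries.

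Markers of other cells moved with the groups and, for granulocytes and lymphocytes among others, with the library number. Macrophage and monocyte markers summed to 6158 to 6321 CPM in BMDC and 2478 to 2523 CPM in TolDC. Of 14 tested, 9 fell, each at least 2-fold, 3 rose and 2 were not called, with a median of −1.51. Lyz2, lysozyme, went from 4280 to 1542 CPM, whereas Adgre1, which encodes F4/80, was at 31.3, 39.9 and 40.8 CPM and at 123, 125 and 127 CPM (log2 change 1.75 ± 0.19, edgeR adjusted p = 4.73e-05). Csf1r, the receptor of the macrophage growth factor, was called at 0.33 ± 0.12 (edgeR adjusted p = 0.0304), but not when any 1 of the 6 libraries was left out (adjusted p = 0.0609 to 0.103). Of 7 tested markers of type 1 conventional dendritic cells, 3 fell, 2 rose and 2 were not called (median −0.10). The list summed to 588 to 651 CPM in BMDC and 429 to 441 CPM in TolDC. Batf3 and Ly75 fell by 1.31 and 1.38, Itgae and Irf8 rose by 1.11 and 0.79, and Clec9a, at 34.2 and 36.1 CPM, was not called. Of 7 tested markers of type 2 cells, 4 fell, 1 rose and 2 were not called (median −0.50). These summed to 2994 to 3026 CPM in BMDC and 2275 to 2338 CPM in TolDC.

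Neutrophil markers summed to 863, 2944 and 2875 CPM in BMDC and to 806, 1391 and 1367 CPM in TolDC, and were lowest in the libraries numbered 1. Of 15 tested, 6 fell and 2 rose, Mmp8 among the latter, with a median of −1.46. Lcn2, lipocalin 2, was at 60.4, 200 and 201 CPM and at 22.6, 73.6 and 71.0 CPM, so that the groups overlapped, although TolDC was lower at each replicate number. In the fit without a replicate block its call (edgeR adjusted p = 0.0450) was lost without BMDC replicate 2 or 3 or any TolDC library (adjusted p = 0.0587 to 0.128), and with the block the call was kept (log2 change −1.44, edgeR adjusted p = 0.00973). Mast cell, basophil and eosinophil markers summed to 255 to 411 CPM and 166 to 500 CPM, and those of T and NK cells to at most 38.7 CPM. Progenitor markers summed to 26.3 to 34.4 CPM in BMDC and 109 to 116 CPM in TolDC. Of 8 tested, 3 rose, 1 fell, Flt3, and 4 were not called. Most of the rise of the sum came from Cd34, from 13.9 to 68.1 CPM, and Kit, from 1.81 to 22.3 CPM. Kit, the stem cell factor receptor, is also in the mast cell list. The stromal list, 194 to 211 CPM and 412 to 452 CPM, was nearly all Pecam1, an adhesion molecule that myeloid cells also carry (201 to 428 CPM), with 4 of its 12 genes without counts in all 6 libraries. Immediate early genes of handling summed to 3445 to 3542 CPM and 4160 to 4212 CPM, and mitochondrially encoded transcripts to 21288 to 21837 CPM and 18714 to 20367 CPM. Of the 13 mitochondrially encoded genes 8 were tested. The others, mt-Co2, mt-Co3, mt-Atp6, mt-Atp8 and mt-Nd4l, had few or no counts, so that the sum covers part of these transcripts only. The part of these differences in the results on other genes was not tested. Without the 4 libraries numbered 1, 4277 genes were higher and 4116 lower.

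**Figure D4:**
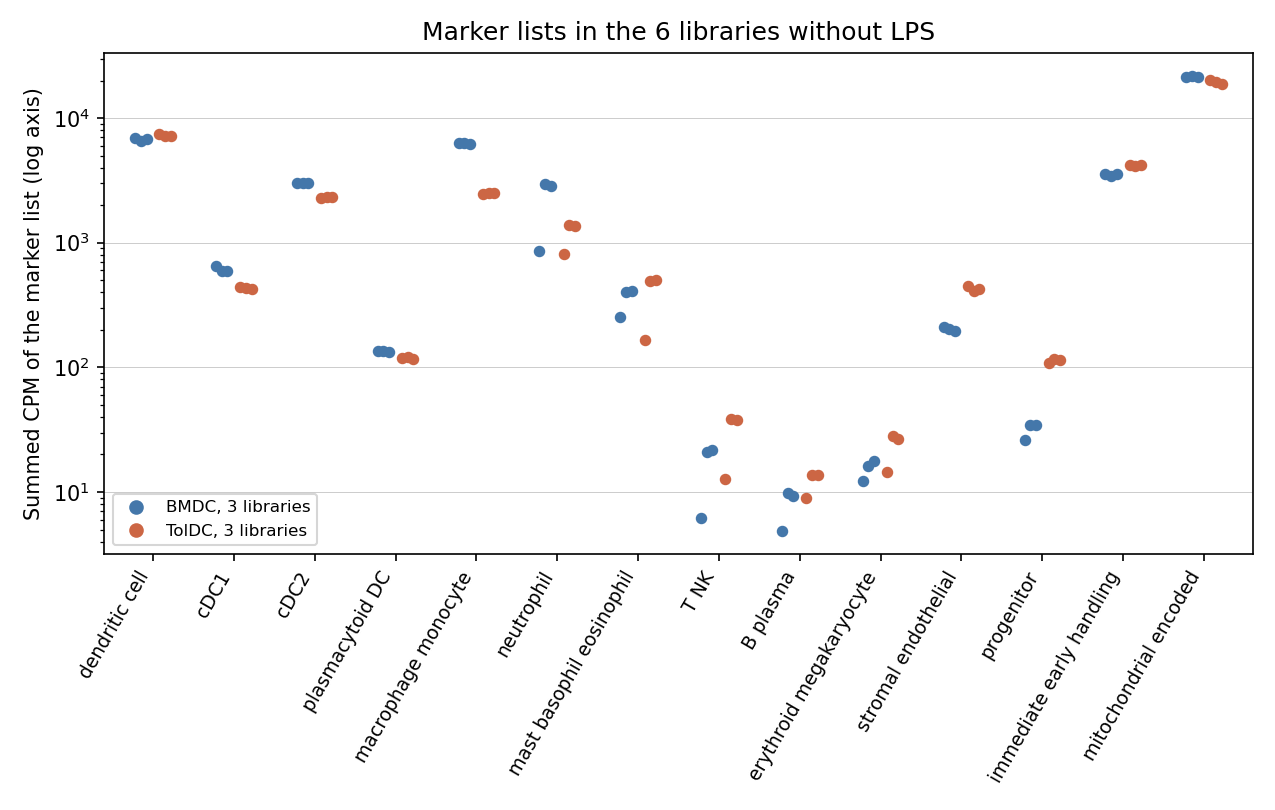
Summed CPM on a log axis of 14 marker lists in the 6 libraries, 1 point a library, BMDC in blue and TolDC in orange, with replicates 1, 2 and 3 from left to right in each group. The sum of macrophage and monocyte markers is lower and that of progenitor markers, mostly Cd34 and Kit, higher in all 3 TolDC libraries. The sum of neutrophil markers is lowest in the libraries numbered 1, at 863 and 806 CPM.

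The same treatment was measured in 6 further libraries with LPS, which share none with the comparison above. All 24 genes with the largest changes were called in the same direction there. Of the 853 genes at least 2-fold higher without LPS, 685 (80.3%) were higher with LPS, against 34.3% of all genes tested, and 22 were lower. Of the 1055 at least 2-fold lower, 791 (75.0%) were lower, against 33.7% of all genes, and 32 higher. A test of the difference between the effects with and without LPS called 5834 genes (44.4%), and 395 of the 853 (46.3%) and 478 of the 1055 (45.3%), shares close to that of all genes. Aldh1a2 had the clearest difference among the 24: with LPS it was at 139 ± 5.47 CPM in BMDC and 23.3 ± 0.316 CPM in TolDC (SD, n = 3), a log2 change of −2.58 against −6.97 without (edgeR adjusted p of the difference = 1.94e-16).

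**Figure D5:**
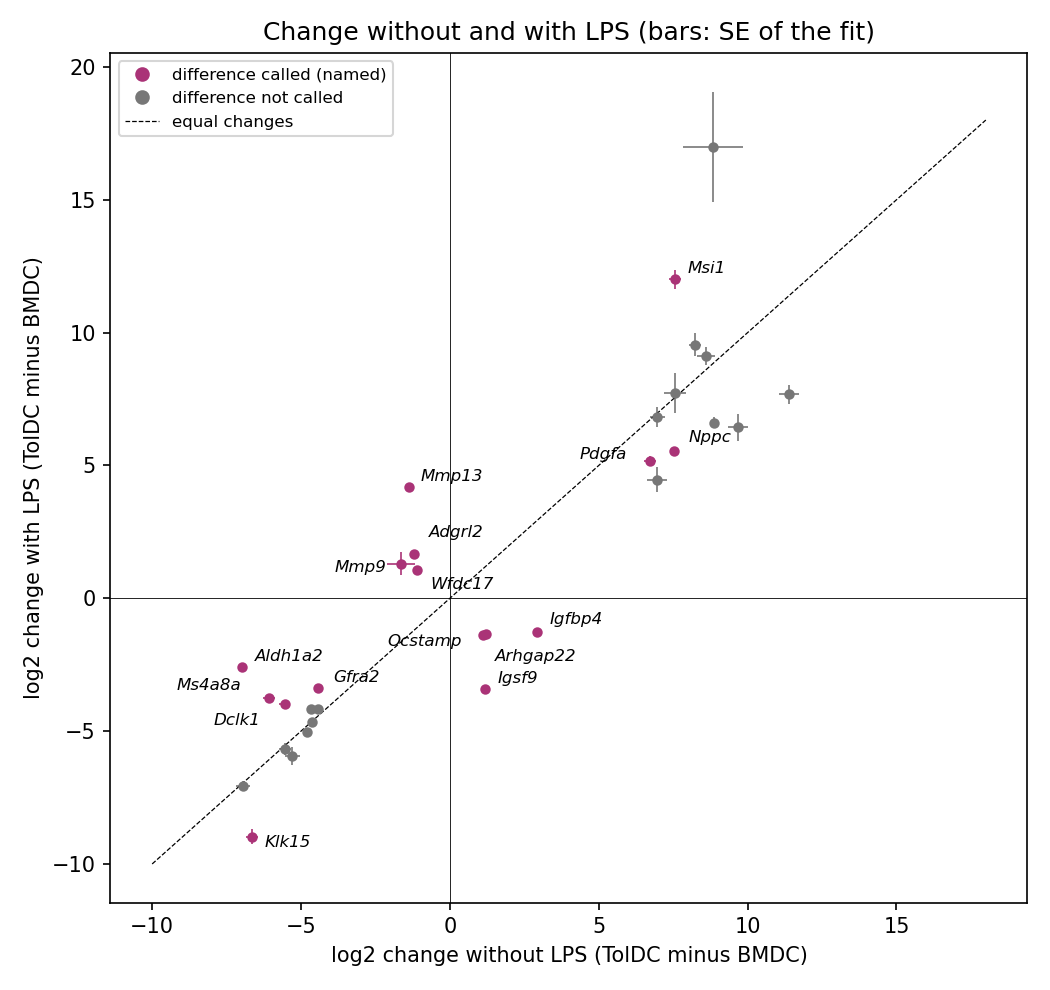
Log2 change (TolDC minus BMDC) without LPS (x axis) and with LPS (y axis) of the 24 leading genes and of 8 genes chosen because they moved in opposite directions, with SE bars, named and purple where the difference was called, which for the 8 follows from their choice. The leading genes lie in the lower left and upper right quadrants, and Aldh1a2 lies above the dashed line of equal changes, at −6.97 and −2.58.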

How the data were processed

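Raw counts per gene, which the authors deposited, were made with cutadapt and STAR on mouse genome mm10 (GRCm38), per the submitters' processing notes; no source used gives versions, annotation or settings. RNA was extracted as total RNA and libraries were made with a stranded messenger RNA kit, per the labels' protocols. The strand-specific column was used, with 35.2 to 36.6 times the reads of the opposite strand in the 6 libraries. Reads matching several places (9.36% to 9.85%) were not counted to genes. GENCODE M21 gave symbols and positions for 31011 of the 31054 identifiers. Genes were kept with filterByExpr, libraries scaled by TMM (factors 0.945 to 1.04) and a robust quasi-likelihood model with a mean per group fitted to all 12 libraries (edgeR 4.0.16, R 4.3.3). CPM values use the TMM-scaled library sizes, and SEs were derived from the log2 change and its F statistic. The biological coefficient of variation was 0.0572.

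Alternatives were another scaling, other filters, DESeq2 1.42.0, limma-voom (limma 3.58.1), the 6 libraries alone, unstranded counts, a replicate block and left-out libraries. The numbers were taken as pairing the samples, from the titles alone: deviations from the group means correlated at 0.405, 0.154 and 0.202 between libraries numbered 1, 2 and 3. BMDC 2 with TolDC 3 (0.149) and BMDC 3 with TolDC 2 (0.121) were close to the latter 2 values, so that the libraries numbered 1 alone stood clearly apart. Named genes are the 12 largest rises and falls called without overlap at 5 CPM or more in the higher group, leaving out predicted genes and pseudogenes, up to 4 called members of each list at 5 CPM or more, and 35 fixed by name; other list members and genes were named after their values were seen. The comparison, the lists and the named genes were chosen with earlier results of these data known. Promoter windows were available for 10205 of the tested genes. Results for some genes are not reported here.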

Additional observations from a re-analysis of the deposited data

Results flagged for a closer look

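Among the 24 genes with the largest changes, 8 had effects that differed between the comparisons without and with LPS by the edgeR test of the difference. The 24 were chosen by their change without LPS, which this test also uses. The log2 difference (with LPS minus without) was 4.39 for Aldh1a2 (adjusted p = 1.94e-16), 2.31 for Ms4a8a (adjusted p = 3.44e-05), 1.58 for Dclk1 (adjusted p = 4.44e-04) and 1.04 for Gfra2 (adjusted p = 0.00394), so that these falls were smaller with LPS. It was −2.31 for Klk15 (adjusted p = 0.0456), whose fall was larger with LPS and which had 1 count in TolDC with LPS. It was −1.98 for Nppc (adjusted p = 4.35e-05), which reached 119 CPM in TolDC with LPS and 2.53 in BMDC with LPS, and −1.54 for Pdgfa (adjusted p = 0.00260). It was 4.48 for Msi1 (adjusted p = 0.00974), which had no counts in BMDC with LPS, so that this fitted value depends on the prior count and is no bound. Levels of Ms4a8a and Klk15 are uncertain for the reason given with their values.

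A further 8 genes were picked, with their values in view, for being called at least 2-fold in opposite directions, with at least 5 CPM in a group of each comparison. That choice fixes their difference, which is given as a description with no test. Mmp13, a collagenase, was at 28.9 CPM in BMDC and 11 in TolDC without LPS, and at 11 and 198 CPM with it, a log2 difference of 5.56. Mmp9, a gelatinase abundant in neutrophils, had a difference of 2.95, with means of 69.9 and 22.2 CPM without LPS and 53.6 and 131 CPM with it. Wfdc17 and Adgrl2, lower without and higher with LPS as well, differed by 2.14 and 2.87. In the other direction, Igsf9, a cell adhesion molecule, was at 30.7 and 69.3 CPM without LPS and at 87.5 and 8.17 CPM with it, a difference of −4.59. Igfbp4, which binds insulin-like growth factors, was at 6.95 and 52.3 CPM and at 13.9 and 5.74 CPM, a difference of −4.18. Ocstamp, a factor of osteoclast fusion, and Arhgap22 differed by −2.51 and −2.57.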

How the results depend on the processing

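The counts of called genes stayed within 1.5 times under every alternative run. With 1 of the 6 libraries left out, 3800 to 3948 genes were higher and 3678 to 4091 lower, and with 1 of the 12 left out 5244 to 5782 differed with LPS. With a replicate block 4497 were higher and 4283 lower (4579 and 4244 in the 6 libraries alone), and the block changed no call of a named gene but that of Il1rn. DESeq2 called 3670 and 3987, and limma-voom 4200 and 3991. No named gene reversed. Lcn2, Mki67 and Ndufa4 lost their calls in 1 or more alternatives, as did Cd80 and Csf1r. Of list counts, 6 moved by over 1.5 times, from lysosomal genes that rose (13 to 8) to members of endoplasmic reticulum stress that rose (2 to 1), each given with its list. The fitted change of Cyp24a1 was 13.2 with limma-voom and 16.3 without BMDC replicate 3. Depth limits the change of Scara5, without BMDC counts, to a lower bound.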

Other observations

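The transcripts with the largest shifts in share were chosen after their values were seen. Chil3, a chitinase-like protein of alternatively activated myeloid cells, took 8.34% of the CPM in BMDC and 5.56% in TolDC (79544, 86024 and 84504 CPM against 54016, 57099 and 55547 CPM, log2 change −0.58 ± 0.037, edgeR adjusted p = 8.74e-11). Mmp12, the macrophage elastase, went from 5918 to 3053 CPM and Plet1, a surface protein, from 2647 to 779 CPM. Gains were led by Tgm2, by Psap, the saposin precursor, from 13850 to 17670 CPM, and by Arg1, from 3390 to 6917 CPM, and Lgals3, galectin 3, went from 2931 to 5252 CPM. With LPS, Mmp12 was higher in TolDC (log2 change 1.36, edgeR adjusted p = 2.63e-08).

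Gm42418, a transcript that overlaps ribosomal RNA sequence and was also chosen after its values were seen, was at 1266, 2382 and 1916 CPM in BMDC and at 972, 836 and 846 CPM in TolDC (edgeR log2 change −1.07, adjusted p = 0.00173). Its relation to the rise of ribosomal protein genes was not tested.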
